A study of Homo sapiens with 6 samples.

Results

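The 10 genes described here are 3 classical cadherins (CDH1, CDH2 and CDH3), the epithelial adhesion gene EPCAM, the intermediate filament gene VIM, and 5 transcription factor genes of the epithelial-mesenchymal transition (SNAI1, SNAI2, TWIST1, ZEB1 and ZEB2). They were chosen by symbol, out of 19775 genes, and were read by every probe set that the platform annotation gives to a single gene, 20 of 41091 such probe sets. A probe set is a group of short array probes for a transcript, and its signal is given on a log2 scale, so that a difference of 1 is a 2-fold change. Messenger RNA was measured on 6 Affymetrix HG-U133 Plus 2.0 arrays, 3 from cells transfected with a negative control siRNA and 3 from cells transfected with an siRNA against RNF43, a membrane ubiquitin ligase that restrains Wnt signalling. All 6 samples carried the label HepG2, a line derived from a human liver tumour, and RNA was taken at 48 h. The labels name the 3 arrays of a group biological replicates and do not mention separate cultures. The p-values therefore cover only array-to-array spread, which may be partly technical.

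Classical cadherins are membrane proteins that join neighbouring cells by binding each other outside the cell and catenins inside it. Epithelial cells carry mainly E-cadherin, the product of CDH1, and mesenchymal cells mainly N-cadherin, the product of CDH2, with vimentin as their filament protein. In the epithelial-mesenchymal transition, zinc finger factors of the SNAI and ZEB families bind E-box sequences in promoters such as that of CDH1 and repress them, and the helix-loop-helix factor TWIST1 acts in the same program. In liver tumours this program is known for its link to invasion, and Wnt signalling is among its inputs.

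The sense strands of the transfected duplexes are shown because they are the labelled difference between the groups, with the overhang in capitals.
RNF43 siRNA sense: cagaacagaaagcuauuauTT
negative control siRNA sense: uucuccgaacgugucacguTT

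The targeted gene went against its label. RNF43 read 7.65, 7.79 and 7.45 on the control arrays and 8.19, 8.22 and 8.41 on the arrays labelled RNF43 siRNA. Every value of the latter group lay above every control value, 0.64 higher on the log2 scale (SE 0.14; limma adjusted p = 0.0098; exact two-sided permutation p = 0.1, the smallest that 3 against 3 arrays allow). Directions below compare the arrays by their labels, as RNF43 siRNA against control, since no loss of RNF43 mRNA was seen. The arrays had median log2 signals of 5.89 to 6.02. A gene was tested if the mean of its brightest probe set lay above 5.83, the median over all probe sets, and below that level a signal was not shown to be above background.

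The cell label was checked against markers of hepatocytes, of which HepG2 is known to keep many. Of 15 markers with a probe set, 12 lay under the filter. ALB, the albumin gene, read 3.82 to 4.43 over the 6 arrays. AFP, the fetal counterpart of albumin, read 6.91 to 7.13 on the control arrays and 6.12 to 6.65 on the others. RBP4, a retinol carrier, and the transcription factor gene CEBPA were the other markers past the filter, at 10.44 to 11.31 and 8.43 to 9.15. HNF4A was not analysed here. HepG2 is also known as an epithelial line with E-cadherin, and CDH1 was under the filter on every array, as given below. ALB, most other hepatocyte markers and CDH1 thus went against the label, while AFP, RBP4 and CEBPA were past the filter. The epithelial gene EPCAM was past it too, at 8.54 to 9.34. The cells are therefore called here by their label only. Among markers of fibroblasts and stellate cells, 8 of 14 passed the filter, with COL1A1, a fibrillar collagen gene, at 10.27 to 10.73 and COL1A2, which encodes its partner chain, at 2.35 to 6.11. Of the keratin genes of bile duct cells, KRT7 read 13.08 to 13.89 and KRT19 0.59 to 4.92. All 9 leukocyte markers, PTPRC among them (1.93 to 5.22), and 9 of 10 endothelial markers were under the filter, and PECAM1, the endothelial exception, read 6.34 to 7.0.

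**Figure D1:**
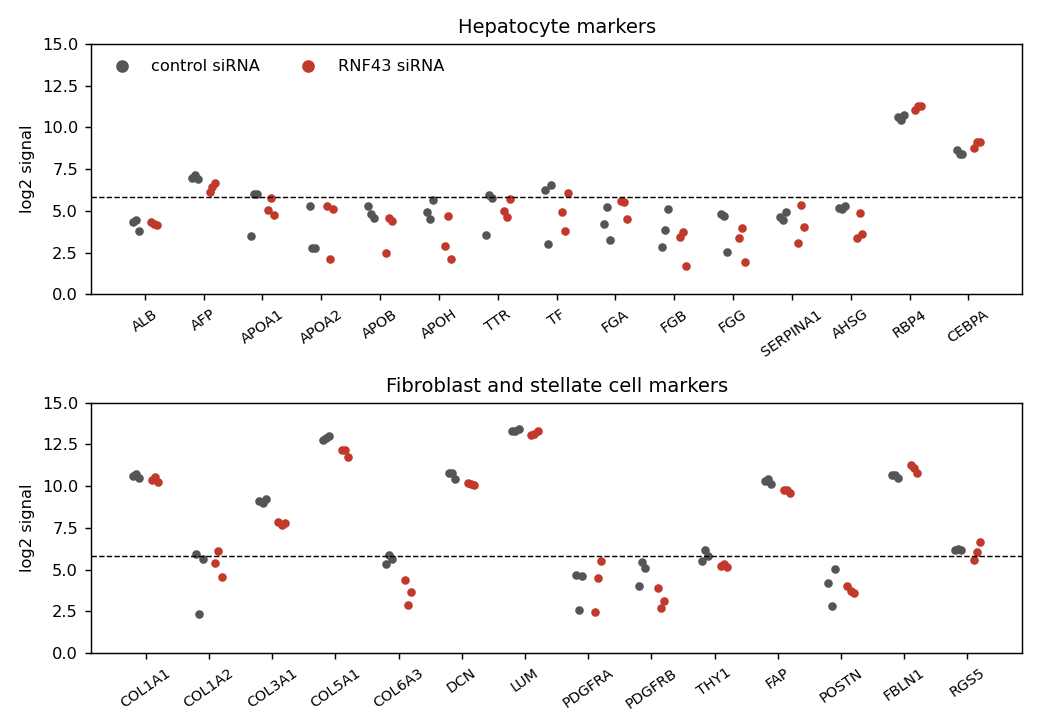
Log2 signal (y axis) of the brightest probe set of each hepatocyte marker (upper panel) and each fibroblast or stellate cell marker (lower panel) on the 3 control siRNA arrays (grey) and the 3 arrays labelled RNF43 siRNA (red), with the filter of 5.83 as a dashed line. ALB lies under the line on all arrays, and COL1A1, COL3A1, COL5A1, DCN, LUM, FAP and FBLN1 lie above it. The hepatocyte markers AFP, RBP4 and CEBPA also lie above it on all arrays. The fibroblast or stellate cell markers COL1A2, COL6A3, PDGFRA, PDGFRB, THY1 and POSTN have means under it.

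Among the 10 genes, SNAI2 and ZEB1 fell with the RNF43 siRNA label, by 1.31-fold and 1.21-fold. CDH2, VIM, TWIST1, ZEB2 and EPCAM had signals past the filter and did not pass the test, and CDH1, CDH3 and SNAI1 lay under the filter and were not tested. In all, 2 of 7 tested genes fell and 0 rose (limma, Benjamini-Hochberg adjusted p under 0.05 over all tested genes). At that threshold 22.6% of all 11853 tested genes changed, 11.1% falling and 11.5% rising. The count among the 10 genes is thus not set apart from the background. At an unadjusted limma p under 0.05 the counts were 3 and 0. No share over all genes was computed at that threshold, so these counts have no background and are not read further. The median log2 difference of the 7 genes was -0.15, with 6 of them below 0, against -0.0028 for all tested genes. That median was below 0 in all 17 alternatives but not steady, at -0.24 without RNF43 siRNA replicate 1 and -0.10 without RNF43 siRNA replicate 3. Some alternatives took it over other genes, so their values are not changes of effect alone. With no filter it was -0.10, with CDH1, CDH3 and SNAI1 included. With probe sets averaged per gene it was -0.33, without ZEB2, whose average lay under the filter. Without probe sets ending in _x_at or _s_at it was -0.05, without VIM and EPCAM, which have no others. The groups did not overlap for 3 of the 7 genes, against 38.9% of all tested genes. In all 3 the values labelled RNF43 siRNA were the lower ones, against 19.8% of all tested genes.

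**Figure D2:**
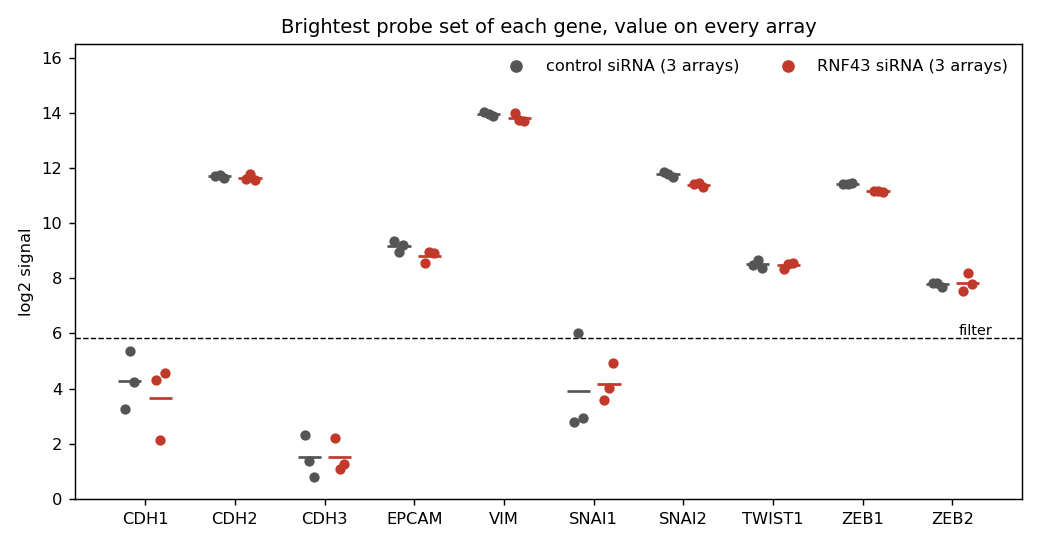
Log2 signal (y axis) of the brightest probe set of each of the 10 genes on every array, control siRNA in grey and RNF43 siRNA in red; horizontal bars are group means and the dashed line is the filter of 5.83. The 3 red points of SNAI2 and of ZEB1 lie under the 3 grey ones, and CDH1 and CDH3 lie under the filter on all 6 arrays; signals of different probe sets are not on a common scale of abundance.

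SNAI2, which encodes the repressor SLUG, read 11.85, 11.79 and 11.68 on the control arrays and 11.41, 11.44 and 11.31 on the arrays labelled RNF43 siRNA. All 3 latter values were below all 3 control values, and the gap between the groups was wider than the spread within either. The log2 difference was -0.38 (SE 0.07; limma adjusted p = 0.0044), a fall of 1.31-fold with a 95% interval of 1.17 to 1.46. SNAI2 has a single probe set here, and its call held in all 17 alternatives, with adjusted p from 1.59e-04 to 0.0252.

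ZEB1, a zinc finger and homeodomain repressor, was read by 4 probe sets. The brightest, 212764_at, read 11.43, 11.41 and 11.44 on the control arrays and 11.15, 11.16 and 11.14 on the others. The SD was 0.02 in the control group and 0.01 in the other, small beside the log2 difference of -0.28 (SE 0.06; limma adjusted p = 0.012), a fall of 1.21-fold with a 95% interval of 1.10 to 1.34. The probe set 210875_s_at read 8.44, 8.71 and 9.02 against 7.88, 8.08 and 8.38, again without overlap, and fell by 0.61 on the log2 scale in the fit over 22660 probe sets (SE 0.18, adjusted p = 0.0437). In 212758_s_at the values were 10.05, 10.20 and 8.62 against 9.54, 8.84 and 8.70. Control replicate 3 lay below every array of the other group there, and the difference of -0.59 did not pass (adjusted p = 0.331). The dimmest, 239952_at, had 5.21, 5.98 and 6.49 against 6.24, 5.89 and 6.30, with overlapping groups and a difference of 0.25 (adjusted p = 0.695).

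In the gene fit the ZEB1 call held in 16 of 17 alternatives, including each with 1 array left out. It was lost with the 4 probe sets averaged, where the difference of -0.31 did not pass (limma adjusted p = 0.104, range 0.00224 to 0.104). The separate fit over probe sets, adjusted over more tests, was less steady. There 212764_at was lost without control siRNA replicate 1 (0.0664), control siRNA replicate 2 (0.0557) or RNF43 siRNA replicate 2 (0.0555). It was also lost without an intensity trend (0.0577), within a range of 0.00566 to 0.0664. In that fit 210875_s_at was lost without control siRNA replicate 2 (0.111) or 3 (0.0962) or RNF43 siRNA replicate 1 (0.135) or 2 (0.126), with no filter (0.0692) and with no intensity trend (0.088), within a range of 0.00349 to 0.135.

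**Figure D3:**
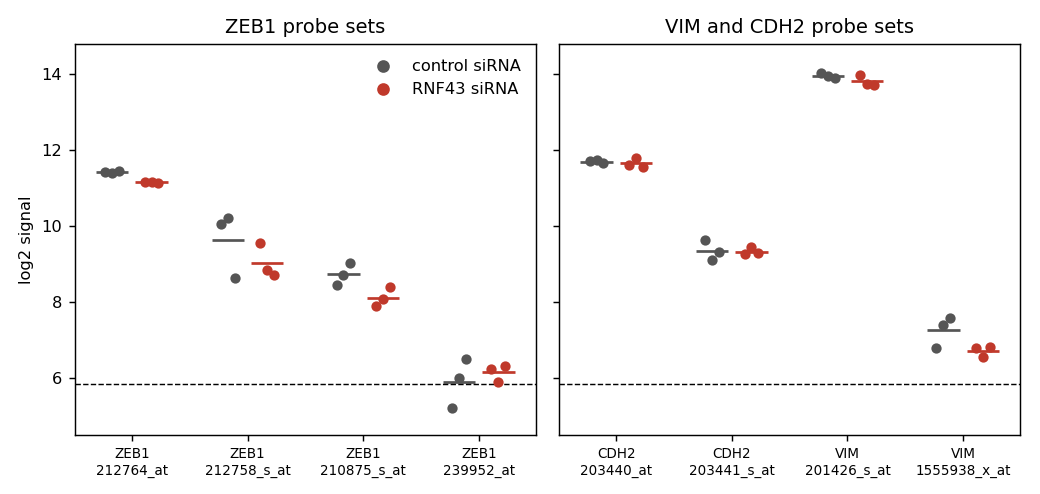
Log2 signal (y axis) on every array for each probe set of ZEB1 (left) and of CDH2 and VIM (right), control siRNA in grey and RNF43 siRNA in red, with bars for group means and the filter of 5.83 dashed. The groups separate in 212764_at and 210875_s_at of ZEB1 and overlap in the other probe sets.

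The stretch before the first annotated start of ZEB1 is shown because ZEB1 and SNAI2, whose products bind the E-box CACCTG, read as CAGGTG on the other strand, fell together. It lies at chr10:31318167-31318416 on the plus strand of GRCh38.p14, per RefSeq, wholly upstream of the annotated gene, and capitals mark the motif.
ZEB1 upstream: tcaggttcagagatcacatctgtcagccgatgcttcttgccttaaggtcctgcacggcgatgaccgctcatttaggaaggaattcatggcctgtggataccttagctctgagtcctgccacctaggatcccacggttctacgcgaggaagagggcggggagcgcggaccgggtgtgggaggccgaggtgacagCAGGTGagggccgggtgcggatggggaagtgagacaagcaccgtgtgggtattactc

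The motif begins 57 bases before this start. RefSeq promoter windows, from 250 bases before a start to 50 after it, were matched for 4 of the 10 genes. Searched on both strands, the motif was in 2 of 7 ZEB1 windows and in 0 of the 4 windows of CDH2, VIM and ZEB2. Over all 35116 windows 20.6% held it, so its presence near ZEB1 is a description of the sequence and no sign of binding.

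The other factor genes did not pass the test. ZEB2, the paralogue of ZEB1, read 7.83, 7.84 and 7.67 against 7.55, 8.18 and 7.80 on its brightest probe set, with a log2 difference of 0.06 (95% interval -0.33 to 0.46, adjusted p = 0.835). The control values lay inside the range of the others. Its 1 other probe set past the filter, 228333_at, read 5.70, 6.50 and 6.74 against 6.51, 6.87 and 7.01, and its difference of 0.48 did not pass either (adjusted p = 0.325). The remaining 3 ZEB2 probe sets were under the filter on every array. TWIST1 read 8.50, 8.68 and 8.38 against 8.34, 8.52 and 8.57, a difference of -0.05 (95% interval -0.32 to 0.23, adjusted p = 0.834). SNAI1, which encodes SNAIL, read 2.78, 6.03 and 2.95 against 3.59, 4.02 and 4.93. Control replicate 2 alone was above the filter, so no level or change of SNAI1 could be given.

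The cadherins showed no change past the test. CDH2 read 11.72, 11.73 and 11.65 on the control arrays and 11.62, 11.79 and 11.56 on the others. The groups overlapped, and the log2 difference of -0.04 had a 95% interval of -0.21 to 0.13 (adjusted p = 0.754), so a fall beyond 1.16-fold or a rise beyond 1.09-fold lay outside it. Its second probe set, 203441_s_at, gave -0.03 (adjusted p = 0.92). CDH1 was below the filter on all 6 arrays in both probe sets, at 3.25, 5.37 and 4.25 against 4.32, 2.14 and 4.56 in 201130_s_at. In 201131_s_at it read 3.37, 4.41 and 2.02 against 4.69, 4.43 and 2.67, and the mean differences of the CDH1 probe sets had opposite signs, -0.62 and 0.66. CDH3, which encodes P-cadherin, read 0.8 to 2.32 on the control arrays and 1.07 to 2.20 on the others. Neither E-cadherin nor P-cadherin mRNA was shown to be above background, which limits what these arrays can say of a change between cadherins.

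VIM read 14.04, 13.96 and 13.90 against 13.99, 13.75 and 13.71. RNF43 siRNA replicate 1 lay within the control range, and the difference of -0.15 did not pass (SE 0.08, 95% interval -0.33 to 0.02, adjusted p = 0.206). It passed without that array, at -0.24 (adjusted p = 0.0289; 0.0289 to 0.468 over its alternatives). The second VIM probe set, 1555938_x_at, read 6.77, 7.40 and 7.57 against 6.79, 6.54 and 6.80, a difference of -0.54 that did not pass (adjusted p = 0.163).

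EPCAM, an adhesion molecule of epithelial and liver progenitor cells, read 9.34, 8.96 and 9.20 against 8.54, 8.96 and 8.91. The groups touched without overlap, at values that both round to 8.96. The difference of -0.37 (SE 0.14, 95% interval -0.68 to -0.05) did not pass after adjustment (unadjusted p = 0.0254, adjusted p = 0.0896), and it did not pass in any of its 16 alternatives (0.0501 to 0.273).

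**Figure D4:**
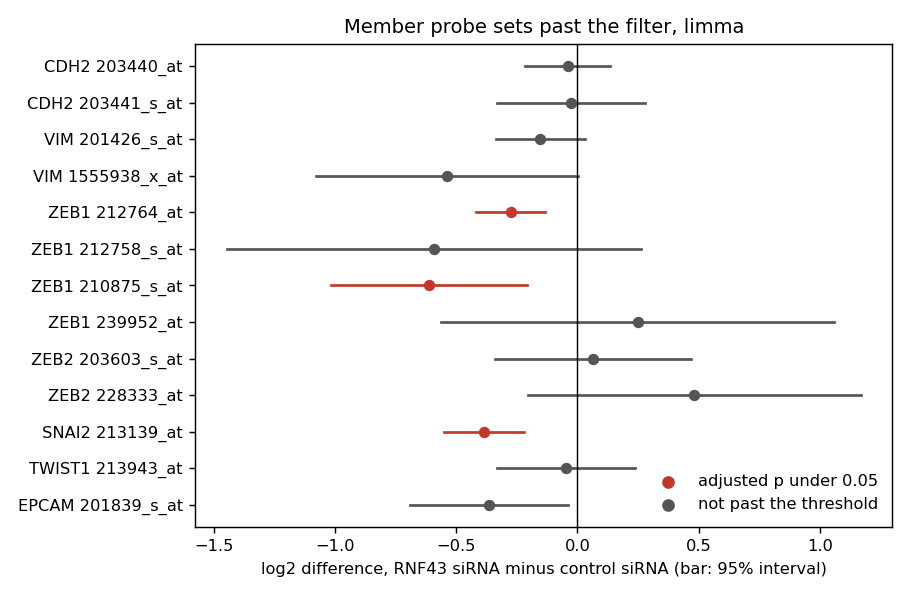
Log2 difference, RNF43 siRNA minus control siRNA (x axis), of the 13 probe sets past the filter, with 95% intervals from limma; red marks adjusted p under 0.05 over 22660 probe sets. SNAI2 and 2 ZEB1 probe sets are red, and 10 of the 13 points lie below 0.

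Of all 13 probe sets past the filter, 3 fell and 0 rose at adjusted p under 0.05, against 17.7% changed and 8.65% fallen over 22660 probe sets. At an unadjusted p under 0.05 in limma the counts were 4 and 0. No share over all probe sets was computed at that threshold, so these counts have no background either. The groups did not overlap in 4 of the 13, against 35.7% of all probe sets tested. The other 7 probe sets of the 10 genes were not tested.

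The genes most like ZEB1 across the 6 arrays were OPN3, an opsin gene (Pearson's r = 0.999), and the zinc finger gene ZNF616 (0.997). Those most like SNAI2 were PSMC4, a proteasome subunit gene (0.998), and the noncoding SLC9A3-OT1 (0.998). These correlations describe 6 arrays in 2 groups, share the group difference, and were picked as the highest of all tested genes.

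Genes that act with the cadherins and the transition factors were read as lists, each described by its counts beside the background of 11.5% risen and 11.1% fallen. Of 18 tested catenin and cadherin anchorage genes, 4 rose and 2 fell (median log2 difference 0.08, and 0.04 to 0.12 over its alternatives). CBLL1, which encodes HAKAI, a ubiquitin ligase of E-cadherin, rose 2.01-fold (adjusted p = 9.11e-04) on its brightest probe set, and by 0.55 on the log2 scale with probe sets averaged (adjusted p = 0.028, range 2.73e-06 to 0.028). PKP4, a catenin of the p120 family, rose 1.95-fold (adjusted p = 1.52e-04). AFDN, the nectin anchor afadin, fell 1.40-fold, and PTPRK, a receptor phosphatase of junctions, 1.31-fold. JUP, which encodes gamma-catenin, rose 1.28-fold (adjusted p = 0.00663), and the catenin genes CTNNA1 and CTNNB1 gave log2 differences of 0.04 and -0.02 and did not pass. None of 3 tested members of the other cadherins passed in limma, nor in any of 17 alternatives, and 14 were under the filter. At an unadjusted limma p under 0.05 the count was also 0, again without a share over all genes.

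Tight junction and polarity genes rose in 4 and fell in 2 of 21 tested members (median 0.11). PARD6B, a scaffold of the apical polarity complex, rose 2.53-fold (adjusted p = 1.56e-04) and LLGL2, a basolateral polarity gene, 1.36-fold. CLDN12 rose 1.21-fold, a call lost without control siRNA replicate 1 (adjusted p = 0.0725), control siRNA replicate 2 (0.0662) or RNF43 siRNA replicate 2 (0.0818), within a range of 0.00309 to 0.0818. The median of this list was -0.12 with probe sets averaged per gene, 0.05 without control siRNA replicate 2 and 0.06 in the upper 30% of probe sets. DLG1 rose 1.33-fold on its brightest probe set, and gave -0.12 averaged over its probe sets (adjusted p = 0.75; 3.5e-04 to 0.75 over its alternatives). The number of changed genes in the tight junction list was 3, not 6, without control siRNA replicate 1, control siRNA replicate 2 or RNF43 siRNA replicate 2, and with probe sets averaged per gene.

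Of 14 tested epithelial regulators and surface genes, 3 rose and 1 fell (median 0.14, but 0.06 without RNF43 siRNA replicate 1 and 0.09 without probe sets ending in _x_at or _s_at). CD24, a surface glycoprotein, rose 1.39-fold, the mucin gene MUC1 1.33-fold, and KLF5, an epithelial transcription factor, 1.31-fold on its brightest probe set (not passing when averaged over its probe sets; adjusted p = 0.265; 2.22e-04 to 0.265 over its alternatives). TSPAN8, a tetraspanin gene, fell 1.44-fold. ESRP1, which drives epithelial splicing, and GRHL2, an activator of CDH1, were among 8 members under the filter.

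Other transition factors and their partners rose in 10 and fell in 2 of 29 tested members (median 0.10, but 0.01 without probe sets ending in _x_at or _s_at). ID2, an inhibitor of helix-loop-helix factors, rose 1.67-fold (adjusted p = 7.4e-04), and FBXL14, part of a ubiquitin ligase that acts on SNAI1 and SNAI2 proteins, 1.33-fold. HDAC1, a deacetylase that SNAI and ZEB factors recruit, fell 1.34-fold (adjusted p = 9.98e-04). TCF3, an E-protein partner of helix-loop-helix factors, fell 1.28-fold on its brightest probe set. The TCF3 difference was -0.09 over all its probe sets (limma adjusted p = 0.787, range 8.67e-04 to 0.787) and 0.15 without probe sets ending in _x_at or _s_at. The number of changed genes in this list fell from 12 to 6 without RNF43 siRNA replicate 1 and to 5 without RNF43 siRNA replicate 2. It was 6 without an intensity trend or with probe sets averaged per gene. Without probe sets ending in _x_at or _s_at it was 2. Of the changed genes only HDAC1 and FBXL14 were read by other kinds of probe set. In that setting the rest were read by another probe set or not tested.

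Mesenchymal filament, matrix and motility genes rose in 3 and fell in 5 of 29 tested members (median -0.09, but -0.05 without control siRNA replicate 2 and -0.10 to -0.01 over its alternatives). SERPINE2, a secreted protease inhibitor, fell 1.99-fold (limma adjusted p = 1.2e-05) on its brightest probe set and passed in 16 of 17 alternatives. It did not pass with the mean (limma adjusted p = 0.217, range 4.38e-08 to 0.217). SERPINE2 had 0 other tested probe sets, so that mean took in signals under the filter. ITGAV, an integrin subunit, fell 1.27-fold. PLAUR, the urokinase receptor gene, rose 1.37-fold on its brightest probe set but did not pass with the mean (0.16, adjusted p = 0.17), and it was lower and past the threshold without probe sets ending in _x_at or _s_at, at -0.32 (adjusted p = 0.0476, range 3.61e-05 to 0.17). LOX, a collagen cross-linking enzyme, rose 1.35-fold but not with the mean (adjusted p = 0.795, range 0.00228 to 0.795). FN1, the fibronectin gene, and S100A4 gave -0.09 and -0.02 and did not pass. The number of changed genes in the mesenchymal list was 5, not 8, without control siRNA replicate 1, control siRNA replicate 2, RNF43 siRNA replicate 2 or an intensity trend, and 2 with probe sets averaged per gene.

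TGF-beta, the best known inducer of the transition, was read by 14 tested genes of its pathway, of which 4 rose and 2 fell (median 0.12). The median was 0.08 without control siRNA replicate 2, 0.06 without RNF43 siRNA replicate 2, 0.05 with no filter and 0.26 without probe sets ending in _x_at or _s_at. The coreceptor gene TGFBR3 rose 1.87-fold (adjusted p = 2.72e-04), and the feedback inhibitor SMAD7 1.49-fold. SKIL, another inhibitor of SMAD signalling, rose 1.46-fold on its brightest probe set but not with the mean (adjusted p = 0.757, range 2.51e-04 to 0.757). INHBA, an activin subunit, fell 1.81-fold. With probe sets averaged per gene, 3 genes of the TGF-beta list changed in place of 6, and its median was -0.02.

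**Figure D5:**
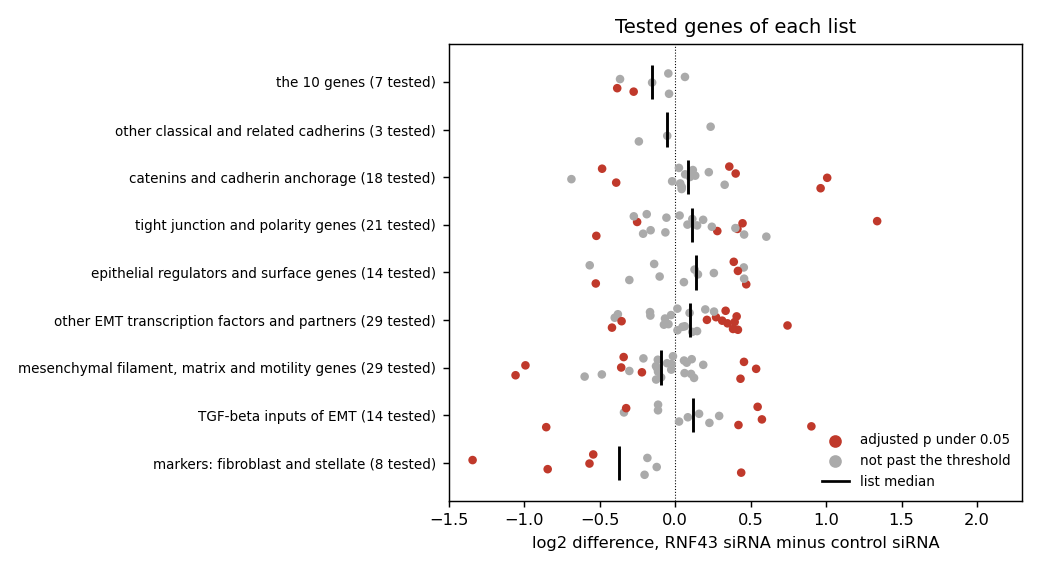
Log2 difference, RNF43 siRNA minus control siRNA (x axis), of every tested gene among the 10 genes, the other gene lists and the fibroblast and stellate cell markers (y axis, with the number tested); red points passed adjusted p under 0.05, grey points did not, and black bars are list medians. The medians drawn lie between -0.15 and 0.14, apart from -0.37 for the fibroblast and stellate cell markers; the other marker lists are not drawn.

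Fibroblast and stellate cell markers also differed between the groups, not all in the same direction. Of 8 tested markers 4 fell and 1 rose, with a median of -0.37 (-0.15 without probe sets ending in _x_at or _s_at). Over all tested genes 11.1% fell and 11.5% rose, the background for each marker list here. FBLN1 was the marker that rose, 1.35-fold (limma adjusted p = 0.0164), and COL1A1, LUM and RGS5 did not pass. The summed linear signal of all 14 was 24168 to 25417 on the control arrays and 18789 to 19813 on the others. LUM alone made up 40.6% to 53.4% of it. COL5A1, also bright, read 12.74 to 12.99 on the control arrays and 11.75 to 12.18 on the others. COL3A1, a fibrillar collagen, read 9.11, 8.97 and 9.25 against 7.86, 7.66 and 7.80, and DCN, a matrix proteoglycan, 10.41 to 10.79 against 10.05 to 10.17. The DCN fall did not pass with probe sets averaged (adjusted p = 0.551) or without probe sets ending in _x_at or _s_at (0.633), within a range of 1.05e-04 to 0.633. The number of changed markers was 2, not 5, with probe sets averaged per gene or without probe sets ending in _x_at or _s_at. COL3A1 passed in all 15 alternatives that tested it. Markers of other cell types also moved with the label. Of 4 tested bile duct markers 2 rose and 1 fell, with KRT7 1.61-fold higher (limma adjusted p = 9.13e-05) and SPP1, the osteopontin gene, 3.53-fold lower (3.27e-04), and the list's median difference was 0.0072. The summed linear signal of all 7 was 10466 to 10810 on the control arrays and 14963 to 16905 on the others, of which KRT7 alone made up 82.9% to 90.1%. The number of changed bile duct markers was 1, not 3, with probe sets averaged and 0 without probe sets ending in _x_at or _s_at. The KRT7 rise was lost in both (limma adjusted p = 0.118 and 0.168, range 1.24e-06 to 0.168). SPP1 and the risen MUC1 were not tested without such probe sets, nor SPP1 with probe sets averaged. SPP1 passed in all 14 alternatives that tested it, and MUC1 in all 16. Of 3 tested hepatocyte markers, RBP4 and CEBPA rose, and AFP gave -0.60 without overlap and did not pass (unadjusted p = 0.0247, adjusted p = 0.0877). It passed with no intensity trend (adjusted p = 0.0366) or with array weights (0.0451), within a range of 0.0366 to 0.231. The RBP4 rise did not pass with probe sets averaged (adjusted p = 0.488, range 4.93e-05 to 0.488). The CEBPA rise was lost without control siRNA replicate 2 (adjusted p = 0.0656), RNF43 siRNA replicate 2 (0.0843) or RNF43 siRNA replicate 3 (0.0604), within a range of 0.00877 to 0.0843. Changed hepatocyte markers numbered 1, not 2, in each setting where the RBP4 or CEBPA rise was lost. The number was also 1 without probe sets ending in _x_at or _s_at, where RBP4 was not tested. In a bulk sample, fewer cells of a type and less RNA per cell cannot be told apart, and the part of any of these markers in the SNAI2 and ZEB1 values was not tested.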

How the data were processed

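The deposited table held log2 signals of 54613 probe sets on 6 arrays. The submitters' processing notes name MAS5, which scales arrays and subtracts a mismatch signal, so dim probe sets are noisy; no source used here gives its version or scaling target. Linear means trimmed by 2% at each end were 497.03 to 497.23, so the deposited log2 values were used without further normalization, and a shift of all transcripts one way would be hidden. Probe sets were named by the platform annotation with current RefSeq symbols. A gene was its brightest single-gene probe set, tested in the upper 50%, with RNF43 kept in any case. The tests used limma 3.58.1 under R 4.3.3 (intensity trend, two-sided, Benjamini-Hochberg, threshold 0.05), over 11853 genes and again over 22660 probe sets. Of these steps only the limma fit was tested on simulated data, with independent normal values for each gene. The filter, the choice of probe set and the list summaries were not. The members and lists were chosen with earlier results of these data known. Named genes were the 10 members, RNF43, the defining markers, the 2 genes most like each changed member, and up to 4 changed genes per list by smallest p; CTNNA1, CTNNB1, JUP, ESRP1, GRHL2, FN1, S100A4, RBP4, CEBPA, SPP1 and the other markers in the figure were added after their values were seen. Array number limits the precision.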

Additional observations from a re-analysis of the deposited data

How the results depend on the processing

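The alternatives changed normalization, centring, added signal, filter, variance model, array weights, probe sets, pairing and the arrays used. A change of filter or probe sets could also change which genes of a list were included. The number of changed genes was 1587 with probe sets averaged per gene, and 1741 (without RNF43 siRNA replicate 2) to 2656 with 1 array left out, against 2684. Of the changed genes 59.5% were higher with arrays centred on their medians, against 50.8%. Of the 10 genes, 1 changed with that average and 2 to 3 with 1 array left out. Of their probe sets, 1 passed without an intensity trend and 1 to 3 with 1 array left out, against 3, the 1 being without control siRNA replicate 2 or RNF43 siRNA replicate 2. SNAI2 passed throughout, as did RNF43 at 0.51 to 0.72. Differences that turned sign were CDH2 (0.0075 without RNF43 siRNA replicate 3), ZEB2 (-0.11 without RNF43 siRNA replicate 2, -0.11 to 0.21 with 1 array left out), TWIST1 (0.034 without control siRNA replicate 2 and 0.022 without RNF43 siRNA replicate 1, -0.11 to 0.034 with 1 array left out), DLG1 (-0.12) averaged over its probe sets, and, without probe sets ending in _x_at or _s_at, TCF3 (0.15) and PLAUR (-0.32); the cause was not tested. With the replicate block the count was 3908 genes, and VIM passed at -0.15 (adjusted p = 0.0422). Same-numbered arrays correlated at 0.08 to 0.27 in their deviations, and the lowest lay under the 0.1 required of each pair, so the numbers were not taken as pairs; 5 of 6 arrays correlated best with their own number, a hint from the data and not the design. The unfiltered fit was the alternative that gave CDH1, CDH3 and SNAI1 a value.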
